A study of Homo sapiens with 9 samples.

Results

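Src family kinases and the proteins they meet at focal adhesions were followed in OVCAR3 cells through 10 genes, which were FYN, SRC, YES1, LYN, CSK, PTK2, PTK2B, PXN, ILK and CAV1. The genes were listed by name, with earlier results of these data known, and their Ensembl identifiers were matched to symbols with GENCODE 44. All 10 were found among the 60660 genes of the count matrix, and all 10 were among the 17794 genes that passed the low-count filter. OVCAR3 is an established human epithelial ovarian cancer cell line. The data were gene counts from RNA-seq of 9 libraries in 3 groups of 3, named Control, CTCFL-OE and CTCFL-KD. CTCFL, also called BORIS, is the germline paralog of the DNA-binding factor CTCF. CTCFL-OE cells were transiently transfected with 2 µg of pCpGfree-vitroHBORIS, which expresses full-length CTCFL, and collected 48 h later. Control cells carry the label "None" for CTCFL treatment, but they were transfected too. The study's methods name pCpGfree-vitroHLacZ as their negative control plasmid, also at 2 µg and with collection after 48 h. CTCFL-KD cells came from knockdown experiments published earlier, and the knockdown reagent is not given in the sources used here. All cells were grown in the same medium with serum and insulin. Each biological replicate was a pool of 3 technical replicates, and both comparisons with Control used the same 3 Control libraries. For CTCFL-KD, the knockdown and the difference in experiment and transfection cannot be told apart.

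Focal adhesions are the sites where integrins tie the extracellular matrix to actin. Ligand-bound integrins recruit the kinase FAK, encoded by PTK2, which then binds SRC or FYN. The pair phosphorylates scaffold proteins such as paxillin, encoded by PXN. CSK holds Src family kinases in their inactive form by phosphorylating their C-terminal tail. ILK is a pseudokinase that joins integrin tails to actin through PINCH and parvin proteins. Caveolin-1, encoded by CAV1, coats the small membrane pits called caveolae and is itself a substrate of Src kinases. SRC, YES1 and FYN are found in most cell types, and LYN is best known from blood cells.

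The total counts per library lay between 14332622 and 24490080. The part of these counts on mitochondrial genes was 6.16% to 6.52% in Control, 7.40% to 14.9% in CTCFL-OE cells and 7.80% to 11.8% in CTCFL-KD, so that both altered groups lay above Control. CTCFL itself had 6, 9 and 10 counts in Control, 36, 34 and 72 in CTCFL-OE cells and 0, 1 and 0 in CTCFL-KD, so the libraries were ordered as their labels say. CTCFL-KD replicate 1 stood apart from its group. Its counts relative to the other CTCFL-KD libraries fell with transcript length, from a median log2 ratio of 0.84 in the genes with the shortest exons to -0.62 in those with the longest (the outer of 5 equal bins). For the 10 genes, calls that change without this library are given with and without it. Of 15 epithelial and ovarian carcinoma markers, 14 were at 1 CPM (counts scaled by library size) or more in every group, and ESR1 was below. Their summed level was 6335 to 6456 CPM in Control, 5690 to 5954 in CTCFL-OE cells and 10828 to 18533 in CTCFL-KD. Of the 14, 10 passed the test described below as higher in CTCFL-KD and 3 (KRT7, WT1 and MECOM) as lower. Fibroblast markers summed to 139 to 142 CPM in Control, 88.4 to 208 in CTCFL-OE cells and 65.5 to 68.9 in CTCFL-KD, with TCF21 at 0 in every library. MMP2 was the fibroblast marker that fell in CTCFL-KD, while COL1A2 (0 CPM in Control and 13.9 in CTCFL-KD) and POSTN rose. Haematopoietic markers summed to between 7.08 and 24.3 CPM over all libraries, with CD3D and MS4A1 at 0, and endothelial markers to between 19.7 and 32.3, with EMCN and ROBO4 at 0. In CTCFL-KD, CD14 and KDR were among those that rose, and ITGB2, CSF1R, CORO1A and PECAM1 fell. In CTCFL-OE, ITGB2 and VWF rose. The part of these shifts in the results was not tested.

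In CTCFL-KD cells, FYN rose about 2.91-fold and CAV1 fell to about 1 part in 11.4 of its Control level. PXN, PTK2B and ILK also fell, by between 1.37-fold and 2.82-fold. SRC, YES1, LYN, PTK2 and CSK did not pass the test. In CTCFL-OE cells none of the 10 genes passed. Levels are CPM on library sizes scaled by TMM, and a gene passed when its adjusted p (edgeR's quasi-likelihood test, adjusted after Benjamini and Hochberg over all tested genes) was under 0.05 in CTCFL-KD or under 0.1 in CTCFL-OE, the thresholds of the study. A differentially expressed gene (DEG) also had a log2 fold change beyond 1. In CTCFL-KD 5 of the 10 genes passed, beside 38.2% of all tested genes, and 3 were DEGs, beside 23.2%. By direction 1 of 10 rose and 4 fell, beside 21.4% and 16.8% of all tested genes. With the replicate number as a block in the fit, 1 rose and 3 fell, beside 20.5% and 16.4%. PTK2B was then not called (edgeR adjusted p = 0.0558). The CTCFL-KD libraries did not overlap Control for 7 of the 10 genes (2 higher, 5 lower), beside 56.3% of all tested genes (28.7% higher, 27.6% lower). In CTCFL-OE 0 of 10 passed, beside 3.15% of all tested genes (1.99% higher, 1.16% lower), and 0 were DEGs, beside 2.07%. The CTCFL-OE libraries did not overlap Control for 6 of the 10 genes (1 higher, 5 lower), beside 37.1% (16.3% higher, 20.8% lower). Between CTCFL-KD and CTCFL-OE 4 of 10 passed (FYN, PTK2B, ILK and CAV1), beside 26.8%, and 3 were DEGs, beside 17.0%. Without CTCFL-KD replicate 1, 8 of 10 passed in this comparison, beside 39.7%, as LYN (edgeR adjusted p = 0.0014), PTK2 (0.0399), PXN (0.00316) and CSK (0.0124) also did. These libraries did not overlap for 6 of 10, beside 39.8%. Of the CTCFL-OE values, 1 (LYN) had an unadjusted p under 0.05, beside 17.7% of all tested genes. DESeq2 on all 9 libraries called 0, beside 1522 of all genes, and DESeq2 on the 2 groups alone called 1, beside 4040 of all genes. The median log2 fold change of the 10 genes was -0.28 in CTCFL-KD and -0.19 in CTCFL-OE, against 0.08 and -0.01 over all tested genes. Because these are bulk samples, fewer cells of a type and less RNA per cell cannot be told apart.

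**Figure D1:**
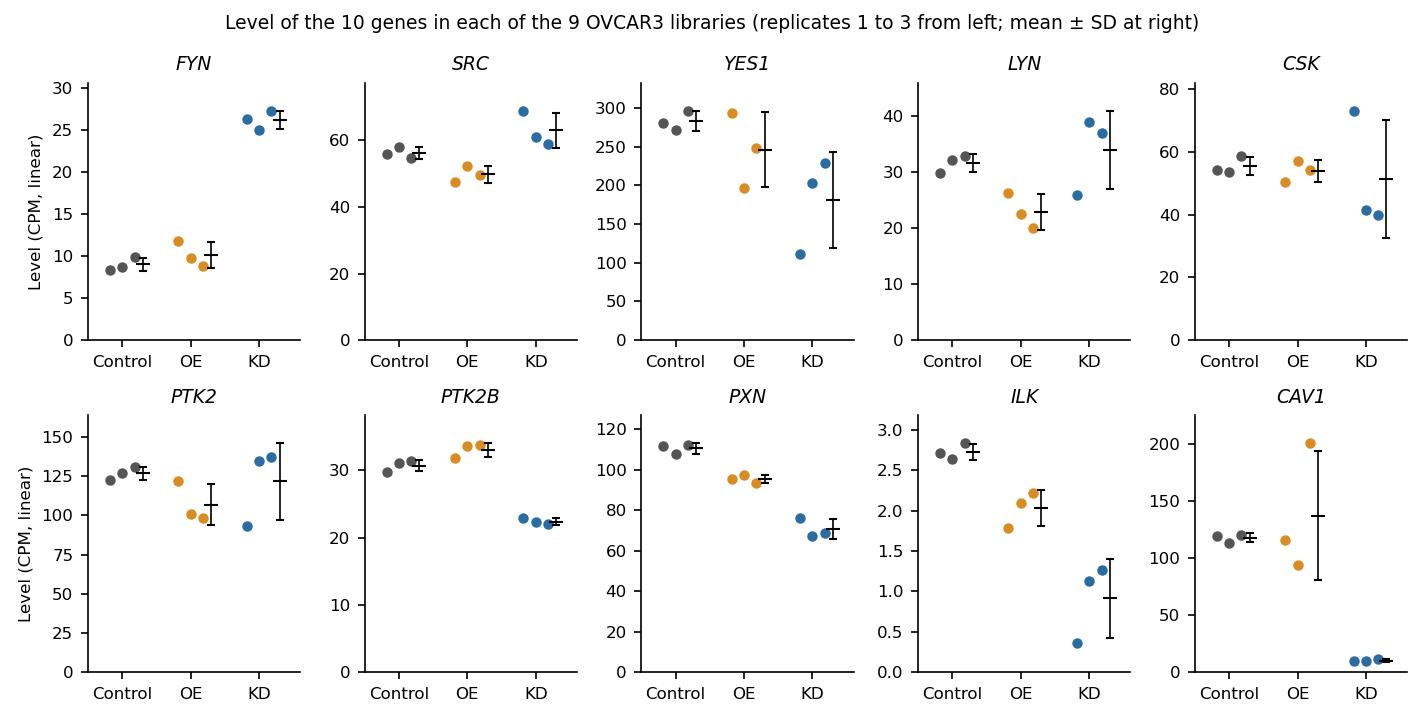
Level of each of the 10 genes in CPM (linear axis from 0) in the 9 libraries, as points for replicates 1 to 3 from left to right within Control (grey), CTCFL-OE (orange) and CTCFL-KD (blue), with the mean ± SD (n = 3) as a black bar. The 3 CTCFL-KD libraries lie above all others for FYN and below all others for CAV1, PXN, PTK2B and ILK, and CTCFL-KD replicate 1 lies apart from replicates 2 and 3 for ILK, YES1, CSK, PTK2 and LYN.

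Per kilobase of exon, the scale on which genes can be compared with each other, the levels in Control spanned from YES1 at 55.5 ± 2.48 CPM per kilobase (SD, n = 3) to ILK at 0.783 ± 0.0284. The place of ILK is uncertain, since opposite-strand exons cover 78.5% of its exon bases and the assignment of reads there is not given. YES1 was higher than 96.1% of tested genes on this scale. CAV1 came next at 30.4 ± 1.02, PXN at 14.8 ± 0.359, CSK at 12.2 ± 0.610 and PTK2 at 9.23 ± 0.303 CPM per kilobase. SRC stood at 7.87 ± 0.245, LYN at 5.15 ± 0.257, PTK2B at 3.90 ± 0.111 and FYN at 1.22 ± 0.108. No neighbours in this order had overlapping ranges over the 3 Control libraries. FYN, the member that rose in CTCFL-KD, was thus the least abundant of the 4 Src family kinases in Control.

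FYN lies on the reverse strand of chromosome 6 (chr6:111660332-111873452, GRCh38). Its level was 8.41, 8.70 and 9.93 CPM in Control, 11.8, 9.77 and 8.85 in CTCFL-OE cells and 26.3, 25.0 and 27.3 in CTCFL-KD. Every CTCFL-KD library was above every other library, while CTCFL-OE overlapped Control. The log2 fold change against Control was 1.54 ± 0.17 (SE) in CTCFL-KD (edgeR adjusted p = 8.5e-05) and 0.17 ± 0.17 in CTCFL-OE (edgeR adjusted p = 0.626). The direct comparison of CTCFL-KD with CTCFL-OE gave 1.37 ± 0.17 (edgeR adjusted p = 0.000247). CTCFL-KD replicate 1, which deviated for many genes, gave FYN a log2 ratio of 0.01 to the mean of the other CTCFL-KD libraries.

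SRC, the founding member of the family, lies at chr20:37344685-37406050 on the forward strand. It measured 55.9, 58.0 and 54.5 CPM in Control, 47.4, 52.4 and 49.7 in CTCFL-OE cells and 68.9, 61.0 and 58.9 in CTCFL-KD. The 3 groups did not overlap, with CTCFL-OE lowest and CTCFL-KD highest, but the differences were small. Its log2 fold change in CTCFL-KD was 0.16 ± 0.15 (edgeR adjusted p = 0.411) and -0.17 ± 0.15 in CTCFL-OE (edgeR adjusted p = 0.569). With length and GC trends corrected per library, the CTCFL-KD value turned to -0.09.

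YES1 (chr18:721588-812546, reverse strand) encodes the kinase Yes, a close relative of SRC. Its level was 280, 272 and 297 CPM in Control, 293, 197 and 248 in CTCFL-OE cells and 111, 203 and 229 in CTCFL-KD. All CTCFL-KD libraries were below Control, and replicate 1 was the lowest. The log2 fold change in CTCFL-KD was -0.64 ± 0.26 (edgeR adjusted p = 0.0766) and did not pass, and without CTCFL-KD replicate 1 it was -0.38 (edgeR adjusted p = 0.0719). Without CTCFL-KD replicate 3 it was -0.85 and passed (edgeR adjusted p = 0.0418). One annotated pseudogene carries the name of YES1, so its count may hold reads that fit both.

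LYN (chr8:55879835-56014169, forward strand) measured 30.0, 32.3 and 33.0 CPM in Control and 26.3, 22.6 and 20.0 in CTCFL-OE. In CTCFL-KD it was at 26.0, 39.0 and 37.1 CPM, with replicate 1 below Control and the other libraries above. Its log2 fold change in CTCFL-KD was 0.10 (edgeR adjusted p = 0.697), and 0.26 without replicate 1 (edgeR adjusted p = 0.102). The CTCFL-OE libraries lay below all Control libraries, with a log2 fold change of -0.47 ± 0.19 that did not pass (edgeR adjusted p = 0.242). It passed when CTCFL-KD replicate 1 was left out of the shared fit (-0.46, edgeR adjusted p = 0.0283). CSK (chr15:74782080-74803197, forward strand), the inhibitory kinase of the family, had 54.3, 53.7 and 58.7 CPM in Control, 50.3, 57.2 and 54.3 in CTCFL-OE cells and 73.2, 41.6 and 39.8 in CTCFL-KD. Its CTCFL-KD libraries thus fell on both sides of Control. The log2 fold change in CTCFL-KD was -0.11 ± 0.23 with replicate 1 (edgeR adjusted p = 0.724) and -0.45 without it (edgeR adjusted p = 0.00568).

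The make-up of the 4 Src family kinases was also described as the share of each in their summed CPM per kilobase. YES1 held 79.6% ± 0.885 (SD, n = 3) in Control, 79.7% ± 3.40 in CTCFL-OE cells and 65.2% ± 8.51 in CTCFL-KD. FYN held 1.74% ± 0.0992 in Control, 2.29% ± 0.302 in CTCFL-OE cells and 6.91% ± 1.87 in CTCFL-KD. In the CTCFL-KD libraries one by one, FYN was at 9.08%, 5.82% and 5.85%, above the highest share of any other library, which was 2.59%. The summed level was 69.7 ± 2.46 CPM per kilobase in Control, 60.3 ± 9.57 in CTCFL-OE cells and 53.4 ± 12.6 in CTCFL-KD. These shares carry no test, since they combine levels already compared gene by gene.

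**Figure D2:**
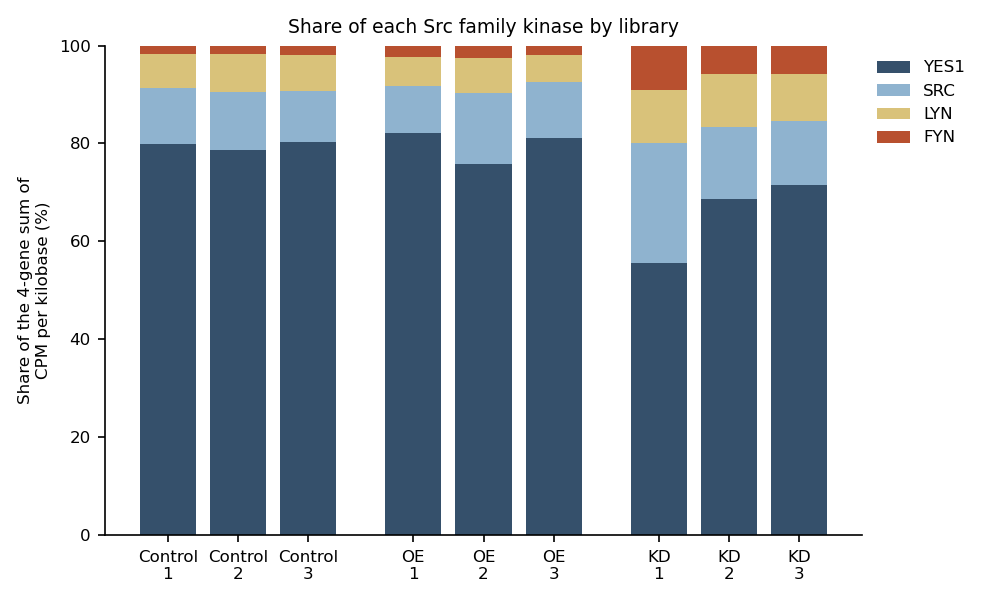
Share (percent) of YES1, SRC, LYN and FYN in the sum of their CPM per kilobase of exon, as 1 stacked bar for each of the 9 libraries. YES1 holds between 75.8% and 82.1% in the Control and CTCFL-OE libraries and 55.5%, 68.6% and 71.5% in CTCFL-KD replicates 1, 2 and 3, while the FYN segment is largest in the CTCFL-KD bars.

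PTK2, the gene of FAK, lies at chr8:140657900-141002216 on the reverse strand. It measured 123, 127 and 131 CPM in Control, 122, 101 and 98.1 in CTCFL-OE cells and 93.3, 135 and 137 in CTCFL-KD. The CTCFL-KD libraries lay on both sides of Control, and the log2 fold change was -0.06 ± 0.19 (edgeR adjusted p = 0.826) with replicate 1 and 0.10 without it. PTK2B (chr8:27311482-27459391, forward strand) encodes PYK2, the calcium-responsive relative of FAK. It was at 29.7, 31.0 and 31.4 CPM in Control, 31.7, 33.5 and 33.7 in CTCFL-OE cells and 22.9, 22.3 and 22.0 in CTCFL-KD. The CTCFL-KD libraries were close to each other and below all others. Its log2 fold change in CTCFL-KD was -0.46 ± 0.14 (edgeR adjusted p = 0.0282) and -0.56 ± 0.14 against CTCFL-OE (edgeR adjusted p = 0.0155). With the replicate number as a block the adjusted p of edgeR against Control was 0.0558, so the call was lost. It was also lost when any 1 Control library, or CTCFL-KD replicate 2 or 3, was left out, with edgeR adjusted p-values of 0.0763, 0.0934 and 0.101 without Control replicates 1, 2 and 3 and of 0.0763 and 0.0745 without CTCFL-KD replicates 2 and 3, at log2 fold changes of -0.44 to -0.49.

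PXN (chr12:120210439-120265771, reverse strand) encodes paxillin, the scaffold that FAK and Src kinases phosphorylate. Its level was 112, 108 and 112 CPM in Control, 95.7, 97.4 and 93.5 in CTCFL-OE cells and 76.5, 67.4 and 69.0 in CTCFL-KD. The 3 groups did not overlap, with Control highest and CTCFL-KD lowest. PXN fell by 0.64 ± 0.15 on the log2 scale in CTCFL-KD (edgeR adjusted p = 0.00627), and this call held in all 21 alternatives. In CTCFL-OE the log2 fold change was -0.21 ± 0.15 (edgeR adjusted p = 0.472). The difference between CTCFL-KD and CTCFL-OE was -0.43 ± 0.15 (edgeR adjusted p = 0.0524), and -0.49 without CTCFL-KD replicate 1 (edgeR adjusted p = 0.00316). Exons of opposite-strand genes cover 27.2% of the exon bases of PXN, most of them from PXN-AS1, which had 441 counts over all libraries against 15951 for PXN.

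ILK (chr11:6603708-6610874, forward strand) was counted at 54, 68 and 56 reads in Control, 39, 40 and 36 in CTCFL-OE cells and 4, 19 and 23 in CTCFL-KD. These are 2.70, 2.64 and 2.84 CPM in Control, 1.78, 2.09 and 2.21 in CTCFL-OE cells and 0.361, 1.13 and 1.26 in CTCFL-KD. The 3 groups did not overlap, in the same order as for PXN. ILK fell by 1.50 ± 0.33 on the log2 scale in CTCFL-KD (edgeR adjusted p = 0.00535), and by 1.18 without CTCFL-KD replicate 1 (edgeR adjusted p = 0.00166). The value in CTCFL-OE was -0.43 ± 0.30 (edgeR adjusted p = 0.479). Between CTCFL-KD and CTCFL-OE it was -1.07 (edgeR adjusted p = 0.0402), a call that held in 10 of 20 alternatives and in 2 of the 9 fits without 1 library, with adjusted p-values up to 0.116. Without CTCFL-KD replicate 1 this value was -0.75, and ILK was no DEG. TAF10, which encodes a TFIID subunit, lies on the opposite strand and covers 68.1% of the exon bases of ILK. It held 2161 counts over all libraries against 339 for ILK, and its log2 fold change in CTCFL-KD was 0.00 ± 0.27 (edgeR adjusted p = 0.995). How reads in this overlap were assigned is not given in the sources used here, so the level of ILK is uncertain. Of the 218 protein-coding genes with more than 50% of their exon bases on opposite-strand exons, 51.8% passed the low-count filter, against 81.0% of the 6844 with up to 50% and 62.5% of the 12858 with none.

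CAV1 lies at chr7:116524994-116561179 on the forward strand. It had 120, 113 and 120 CPM in Control, 116, 94.2 and 201 in CTCFL-OE cells and 9.65, 9.57 and 11.8 in CTCFL-KD. The CTCFL-KD libraries were far below every other library, and CTCFL-OE was spread on both sides of Control, with replicate 3 far above the rest. CAV1 fell by 3.51 ± 0.28 on the log2 scale in CTCFL-KD (edgeR adjusted p = 1.23e-05), or 11.4-fold, in all 21 alternatives. In CTCFL-OE the value was 0.22 ± 0.25 (edgeR adjusted p = 0.679), and -0.17 without CTCFL-OE replicate 3. The direct comparison of CTCFL-KD with CTCFL-OE gave -3.73 ± 0.29 (edgeR adjusted p = 1.98e-05).

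**Figure D3:**
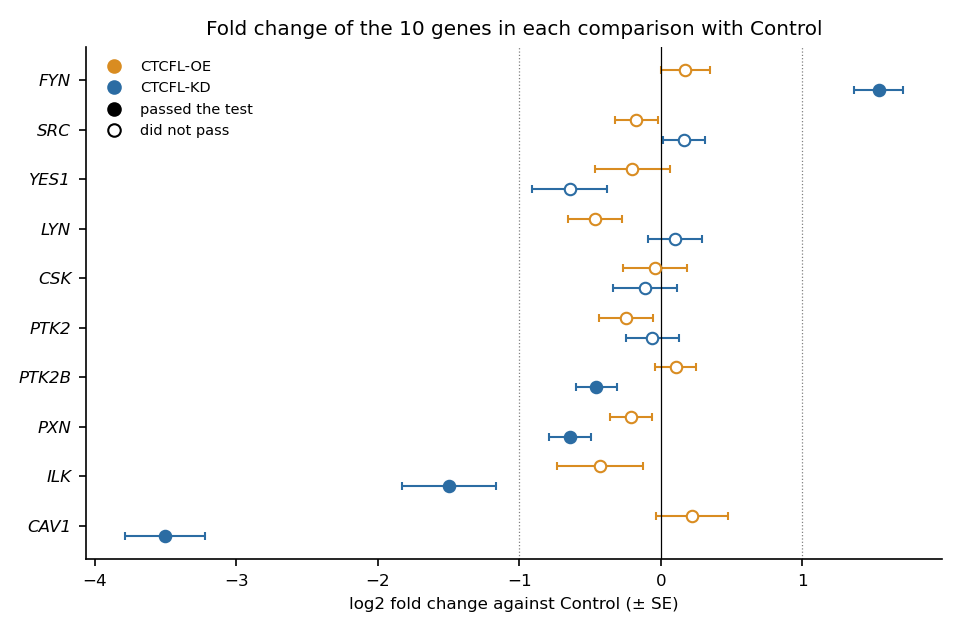
Log2 fold change against Control (horizontal axis, ± SE) of the 10 genes in CTCFL-OE (orange) and CTCFL-KD (blue), with filled points where the edgeR test passed and dotted lines at a log2 fold change of 1 in either direction. All CTCFL-OE points are open, and the filled CTCFL-KD points are FYN at 1.54, PTK2B at -0.46, PXN at -0.64, ILK at -1.50 and CAV1 at -3.51.

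Other genes of caveolae were low in the same CTCFL-KD libraries. Of 9 listed genes, 7 were tested, 5 fell in CTCFL-KD and none rose in this fit or in DESeq2, with a median log2 fold change of -0.93, beside 16.8% of all tested genes that fell, 21.4% that rose and a median of 0.08. CAV2, which encodes the partner of caveolin-1, ends 16.5 kb before CAV1 starts. It was at 50.9, 39.8 and 53.8 CPM in Control, 48.9, 30.4 and 45.4 in CTCFL-OE cells and 5.23, 5.95 and 9.15 in CTCFL-KD, a fall of 2.82 ± 0.27 on the log2 scale (edgeR adjusted p = 3.4e-05). CAVIN1, which encodes the coat protein needed to form caveolae, was at 36.7, 36.8 and 40.6 CPM in Control, 25.3, 17.5 and 23.0 in CTCFL-OE cells and 9.02, 6.90 and 9.53 in CTCFL-KD. Its groups did not overlap, and it fell by 2.16 ± 0.20 in CTCFL-KD (edgeR adjusted p = 2.77e-05) and by 0.79 in CTCFL-OE (edgeR adjusted p = 0.0771). EHD2, an ATPase at the caveolar neck, had 16.9, 18.3 and 16.3 CPM in Control and 4.60, 4.52 and 4.60 in CTCFL-KD, a fall of 1.91 ± 0.17 (edgeR adjusted p = 1.87e-05). CAVIN2 fell by 0.93 and PACSIN2, a membrane-bending protein, by 0.56. CAVIN2 was lost without Control replicate 3 (edgeR adjusted p = 0.0572), and PACSIN2 without Control replicate 1 or 3 (edgeR adjusted p = 0.0575 and 0.0504). CAVIN4 and PACSIN3 did not pass, at 0.21 and 0.17, and CAV3, the muscle caveolin, had at most 3 counts in any library.

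The promoter windows of CAV1, CAV2 and EHD2 are shown because these genes fell together and because the study asks what CTCFL does through DNA binding. CTCF and CTCFL share their zinc fingers and recognise motifs that hold the letters CCCTC. Of the 10 genes, 6 had an entry in the RefSeq promoter table (GRCh38.p14). CAVIN1, which also fell in CTCFL-KD, had no entry there. Each window holds 200 bases, from 250 to 51 bases before the most upstream RefSeq start, and none of the 3 shown overlaps a GENCODE 44 exon. Capitals mark CCCTC or its reverse complement GAGGG, and both strands were searched.
CAV1, chr7:116524759-116524958, forward strand: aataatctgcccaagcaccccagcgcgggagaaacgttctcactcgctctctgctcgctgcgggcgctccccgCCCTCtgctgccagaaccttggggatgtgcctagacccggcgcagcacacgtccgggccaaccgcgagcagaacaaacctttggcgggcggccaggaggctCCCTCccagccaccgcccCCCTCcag
CAV2, chr7:116499488-116499687, forward strand: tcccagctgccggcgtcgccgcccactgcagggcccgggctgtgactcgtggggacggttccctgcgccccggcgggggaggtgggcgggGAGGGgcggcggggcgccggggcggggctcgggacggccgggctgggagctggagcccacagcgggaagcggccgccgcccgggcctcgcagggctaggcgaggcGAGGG
EHD2, chr19:47713172-47713371, forward strand: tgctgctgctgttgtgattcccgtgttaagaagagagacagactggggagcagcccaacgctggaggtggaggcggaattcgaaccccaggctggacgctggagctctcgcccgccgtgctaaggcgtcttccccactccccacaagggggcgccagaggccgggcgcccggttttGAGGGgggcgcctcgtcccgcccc
CCCTC occurred 3 times for CAV1, 2 times for CAV2 and 1 time for EHD2, and 57.3% of the 27305 windows of all genes held at least 1. The 3 windows were 68%, 82.5% and 67.5% GC, against a median of 56.5%. GGGCGG, the GC box, can share bases with GAGGG. It occurred 3, 5 and 1 times, and 34.5% of all windows held it. The window of FYN held no CCCTC on either strand. It overlaps an annotated exon and is not shown. A match is a description of letters and says nothing on binding.

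Around CAV1, 6 other tested genes start within 500 kb. In CTCFL-KD 3 of them fell (CAV2, MET and CAPZA2) and 1 rose (ST7), beside 16.8% and 21.4% of all tested genes. In CTCFL-OE 0 passed, beside 3.15%. There 1 was at an unadjusted p under 0.05, beside 17.7%, and 1 passed by DESeq2 on all 9 libraries, beside 1522 of all genes. CAPZA2, an actin-capping subunit, fell by 1.09 ± 0.20 (edgeR adjusted p = 0.00185) and ST7 rose by 1.09 ± 0.26 (edgeR adjusted p = 0.00745) on the log2 scale, or by 0.84 without CTCFL-KD replicate 1. MET, the receptor of hepatocyte growth factor, was at -0.83 ± 0.30 with an edgeR adjusted p of 0.0494, which rose to between 0.0602 and 0.115 without any 1 of the Control or CTCFL-KD libraries. Around FYN, 8 other genes were tested and 1 rose in CTCFL-KD, beside 21.4% of all tested genes. At an unadjusted p under 0.05 there were 4, beside 48.3%, and DESeq2 on all 9 libraries called 3 as higher, beside 23.0%. In CTCFL-OE edgeR called 0 of the 8, beside 3.15%, with 2 at an unadjusted p under 0.05, beside 17.7%. DESeq2 on all 9 libraries called 1 of the 8, beside 1522 of all genes. The gene that passed was LAMA4, a laminin chain whose start lies 381 kb away, with 1.70 ± 0.243 CPM in Control and 13.4 ± 1.08 in CTCFL-KD (log2 fold change 2.98 ± 0.21, edgeR adjusted p = 5.27e-06).

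The other genes of the pathway came from 8 lists by role, with 105 genes of which 94 were tested. In CTCFL-KD 15 rose and 33 fell, which is 51.1% of those tested, beside 38.2% of all tested genes (21.4% higher, 16.8% lower). Their median log2 fold change was -0.30, against 0.08. In CTCFL-OE 1 rose and 6 fell, which is 7.45%, beside 3.15% of all tested genes (1.99% higher, 1.16% lower), with a median of -0.22 against -0.01. These genes include ITGB6 and FN1, which the study picked on these libraries. Without them 46 of 92 passed in CTCFL-KD (50%) and 5 of 92 in CTCFL-OE (5.43%). With the replicate number as a block, 11 of the 94 rose and 36 fell in CTCFL-KD, beside 20.5% and 16.4% of all tested genes, and 0 rose and 5 fell in CTCFL-OE, beside 1.49% and 0.899%. Without CTCFL-KD replicate 1, 20 rose and 42 fell in CTCFL-KD and 4 rose and 31 fell in CTCFL-OE, beside 26.2% and 23.7% of all genes tested in that fit for CTCFL-KD and 14.0% and 13.4% for CTCFL-OE. The counts of the single lists that follow stand beside the same 21.4% and 16.8% of all tested genes in CTCFL-KD.

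**Figure D4:**
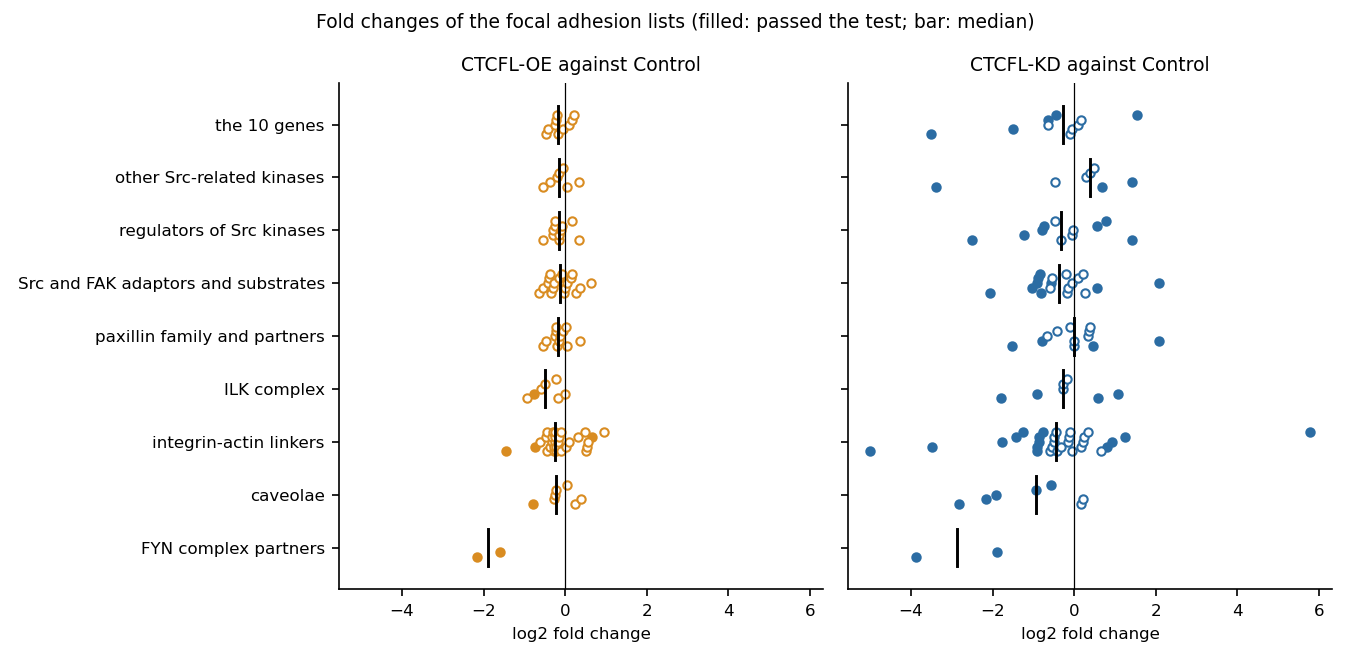
Log2 fold change against Control (horizontal axis) of every tested gene of the 10 genes and of the 8 lists, in CTCFL-OE (left) and CTCFL-KD (right). Filled points passed the edgeR test, and the black bar is the median of the list. The CTCFL-KD medians lie between -2.88 (ITGB6 and FN1) and 0.38 (other Src-related kinases), and the caveolae list is at -0.93.

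Among 7 tested relatives of the Src kinases, 2 rose and 1 fell in CTCFL-KD, which is 42.9%, beside 38.2% of all tested genes. The one that fell was LCK, the Src family kinase of T cells, with 45, 37 and 38 counts in Control and 1, 4 and 3 in CTCFL-KD (edgeR adjusted p = 0.000143). SRMS rose from 6, 9 and 10 counts to 8, 19 and 22 (edgeR adjusted p = 0.0456), and passed in 1 of 6 fits without 1 library of either group, with edgeR adjusted p-values up to 0.138. In CTCFL-OE 0 of 7 passed, beside 3.15% of all tested genes. At an unadjusted p under 0.05 there were 0, beside 17.7%, and DESeq2 on all 9 libraries called 0, beside 1522 of all genes. Among 11 regulators of Src kinases, 3 rose and 4 fell in CTCFL-KD (63.6%, beside 38.2%). PTPRF, a receptor phosphatase, rose from 269 ± 13.0 to 713 ± 180 CPM (log2 fold change 1.41 ± 0.26, edgeR adjusted p = 0.00185). PTPRE, a receptor phosphatase that can activate Src, fell from 2.79 ± 0.365 to 0.461 ± 0.249 CPM (log2 fold change -2.50 ± 0.35, edgeR adjusted p = 0.000397). PTPN11, which encodes the phosphatase SHP2, was at 304, 315 and 337 CPM in Control and at 72.7, 166 and 169 in CTCFL-KD. It fell by 1.23 ± 0.28 (edgeR adjusted p = 0.0064) and by 0.93 without CTCFL-KD replicate 1.

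Of 18 tested adaptors and substrates of Src and FAK, 2 rose and 7 fell in CTCFL-KD (50%, beside 38.2%). ARHGAP26, which encodes GRAF, a protein that binds FAK, rose from 11.8 ± 0.481 to 49.9 ± 14.9 CPM (log2 fold change 2.09 ± 0.23, edgeR adjusted p = 8.45e-05). BCAR1, the gene of p130Cas, was among the 7, with a log2 fold change of -0.83 (edgeR adjusted p = 0.00427). RASA1, the Ras GTPase-activating protein, fell by 1.04 ± 0.28 (edgeR adjusted p = 0.0125), with CTCFL-KD replicate 1 the lowest at 9.65 CPM beside 23.1 and 23.0. Without that library it fell by 0.74 (edgeR adjusted p = 0.000305) and was no DEG. In the paxillin family and its partners 2 of 12 rose and 2 fell (33.3%, beside 38.2%). TGFB1I1, the gene of the paxillin relative Hic-5, fell from 5.18 ± 0.480 to 1.79 ± 0.148 CPM (log2 fold change -1.53 ± 0.24, edgeR adjusted p = 0.000694). PAK3, a p21-activated kinase, rose from 0.736 ± 0.200 to 3.05 ± 1.50 CPM (log2 fold change 2.07 ± 0.40, edgeR adjusted p = 0.00238).

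Of 7 tested genes of the ILK complex, 2 rose and 2 fell in CTCFL-KD (57.1%, beside 38.2%). LIMS1, the gene of the ILK partner PINCH1, was at 83.8, 76.8 and 95.7 CPM in Control, 58.9, 36.0 and 39.6 in CTCFL-OE cells and 16.3, 26.8 and 30.2 in CTCFL-KD. Its groups did not overlap, and it fell by 1.80 ± 0.26 in CTCFL-KD (edgeR adjusted p = 0.000475). The value of -0.93 in CTCFL-OE did not pass (edgeR adjusted p = 0.11). It passed when CTCFL-KD replicate 1 was left out of the shared fit (edgeR adjusted p = 0.0108). It also passed in 1 of 6 fits without 1 Control or CTCFL-OE library (edgeR adjusted p = 0.0384). RSU1, which binds PINCH1, fell in CTCFL-KD (-0.92, edgeR adjusted p = 0.00285) and in CTCFL-OE (-0.76, edgeR adjusted p = 0.0747). PARVB, the gene of beta-parvin, rose by 1.08 ± 0.31 in CTCFL-KD (edgeR adjusted p = 0.0184), which did not hold without Control replicate 2 or 3 (edgeR adjusted p = 0.0755 and 0.0621). Without CTCFL-KD replicate 1 it rose by 0.73.

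Among 30 tested linkers of integrins to actin, 4 rose and 10 fell in CTCFL-KD (46.7%, beside 38.2%). FHL2, a LIM-domain protein, was at 139, 124 and 131 CPM in Control, 108, 117 and 142 in CTCFL-OE cells and 12.8, 8.98 and 13.4 in CTCFL-KD, a fall of 3.49 ± 0.21 (edgeR adjusted p = 2.82e-06). ZYX, the gene of zyxin, was at 231, 213 and 231 CPM in Control, 133, 125 and 146 in CTCFL-OE cells and 63.5, 68.2 and 68.0 in CTCFL-KD. Its groups did not overlap, and it fell by 1.76 ± 0.16 in CTCFL-KD (edgeR adjusted p = 2.18e-05) and by 0.74 in CTCFL-OE (edgeR adjusted p = 0.051). TNS4, a tensin that lacks the actin-binding part, had 107, 130 and 95 counts in Control, 33, 33 and 38 in CTCFL-OE cells and 2, 5 and 0 in CTCFL-KD, and it fell in both (edgeR adjusted p = 0.0726 in CTCFL-OE cells and 4.57e-05 in CTCFL-KD). With the replicate number as a block its CTCFL-OE call was lost (edgeR adjusted p = 0.104). FLNC, the filamin of muscle, moved the other way, with 3, 4 and 0 counts in Control, 2, 5 and 5 in CTCFL-OE cells and 73, 96 and 115 in CTCFL-KD (edgeR adjusted p = 1.42e-05). EVL, an actin-elongating protein, rose from 16.0 ± 0.723 to 37.6 ± 8.28 CPM (log2 fold change 1.23 ± 0.20, edgeR adjusted p = 0.000907). TLN1 and VCL, the genes of talin and vinculin, did not pass, at -0.15 and 0.24.

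ITGB6 and FN1 were followed as the integrin subunit and matrix ligand that the study names, from a protein complex database, in a complex with FYN. Both were picked by the study on these libraries, so their direction is not independent evidence. ITGB6 was at 157, 158 and 160 CPM in Control, 41.6, 23.8 and 40.3 in CTCFL-OE cells and 9.02, 9.99 and 13.5 in CTCFL-KD. Its 3 groups did not overlap. ITGB6 fell by 2.17 ± 0.24 in CTCFL-OE (edgeR adjusted p = 0.0035) and by 3.86 ± 0.26 in CTCFL-KD (edgeR adjusted p = 4.52e-06). FN1, the gene of fibronectin, was at 311, 390 and 356 CPM in Control, 50.4, 133 and 166 in CTCFL-OE cells and 59.7, 109 and 114 in CTCFL-KD. Its altered groups overlapped each other and lay below Control. FN1 fell by 1.90 ± 0.39 in CTCFL-KD (edgeR adjusted p = 0.00365) and by 1.60 ± 0.39 in CTCFL-OE (edgeR adjusted p = 0.0795). Of the 7 listed genes called in CTCFL-OE, ITGB6 alone passed in each fit without 1 library. FN1 passed in 1 of 6 such fits of its groups, ZYX in 1, TNS4 in 1, CAVIN1 in 1 and RSU1 in 1, with edgeR adjusted p-values up to 0.282, 0.278, 0.298, 0.339 and 0.343. TNS2, a tensin and the only 1 of the 7 that rose (log2 fold change 0.66 ± 0.17, edgeR adjusted p = 0.0939), also passed in 1 of 6 fits, with edgeR adjusted p-values up to 0.410, and it did not pass with the replicate number as a block (edgeR adjusted p = 0.122).

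The genes most like FYN and CAV1 across the 9 libraries were found by the root mean square difference of log2 CPM after centring each gene on its own mean, over 9867 genes with at least 10 CPM on average. RAB11FIP4, an effector of recycling endosomes, was nearest to FYN at 0.0764 log2 units, with 337 ± 18.3 CPM in Control, 373 ± 64.2 in CTCFL-OE cells and 1032 ± 71.5 in CTCFL-KD. ZNF512 (0.135), ANKH (0.158), EPHX2 (0.167) and ZBTB22 (0.167) followed. Nearest to CAV1 was FHL2 at 0.257 log2 units, followed by CCN5 (0.360), ADAM12 (0.372), GATA2-AS1 (0.416) and LAMA3 (0.422). LAMA3, a laminin chain, was at 823 ± 64.5 CPM in Control, 1436 ± 347 in CTCFL-OE cells and 73.6 ± 23.3 in CTCFL-KD. These distances are descriptions over libraries that share 3 conditions.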

How the data were processed

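The study's methods state that stranded poly(A) libraries were sequenced and that reads were aligned to GRCh38 with STAR, and the submitters' processing notes also name kallisto. The authors counted reads on genes with featureCounts and deposited these counts without normalization. The strand setting, the treatment of reads with several alignments and the annotation release are not given in the sources used here. Each of the 9 files equalled its column of the deposited matrix.

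Genes were named with GENCODE 44 (60419 of 60660 identifiers). The tests used edgeR 4.0.16 under R 4.3.3. Genes were kept by filterByExpr, scaled by TMM, and a robust quasi-likelihood model with the group as its factor was fitted to all 9 libraries, where DESeq2 was used by the study. Thresholds were an adjusted p (Benjamini and Hochberg) of 0.1 for CTCFL-OE and 0.05 for CTCFL-KD, and DEGs had a log2 fold change beyond 1. The SE was the size of the log2 fold change over the root of F. The fit was tested on simulated data. CPM per kilobase used the union of GENCODE exons. All 10 genes are named. From each other list, up to 3 DEGs in each direction with at least 1 CPM in a group and the largest fold changes were taken, and a list of 2 genes was given whole. A gene that this rule selects among the adaptors and substrates is not reported here. BCAR1, RSU1, TNS2, CAVIN2, PACSIN2, CAVIN4, PACSIN3, CAV3, TLN1, VCL, the genes within 500 kb of CAV1 and FYN, TAF10 and the single marker genes fall outside this rule and were picked after their values were seen, for their role or place. The 10 genes and all lists were chosen with earlier results of these data known.

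The depth was between 14332622 and 24490080 counts, and a count of 0 allows up to 3. The replicates are stated to be independent biological replicates. Their counts differed by more than sampling noise in every pair. Pairs of a Control and a CTCFL-KD library with the same number deviated together, with correlations of 0.428, 0.222 and 0.315 over 9888 genes (0.221, 0.110 and 0.236 with length and GC trends removed). Pairs with unlike numbers lay between -0.432 and 0.205, the highest for CTCFL-KD replicate 2 with Control replicate 3. Whether the numbers pair these groups is thus not settled, and the number was added as a block only in an alternative fit. Between CTCFL-OE and Control libraries of the same number the correlations were -0.0434, 0.254 and -0.0408. Alternatives were DESeq2 1.42.0, other scalings and filters, length and GC offsets, the 2 groups alone, the replicate block, and each library left out. Tables and plots used Python 3.11.15, pandas 2.3.3, numpy 2.4.6 and matplotlib 3.10.9.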

Additional observations from a re-analysis of the deposited data

How the results depend on the processing

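FYN, PXN and CAV1 passed in CTCFL-KD in all 21 alternatives and ILK in all 20 that kept it (it had under 10 counts in 1 library, so a filter of 10 counts in every library drops it). PTK2B passed in 13 of 21. With the replicate number as a block, 4 of the 10 genes passed in CTCFL-KD (6567 of all genes) and 0 in CTCFL-OE (426 of all genes), and PTK2B in CTCFL-KD was the only one of the 10 whose call against Control changed (edgeR adjusted p = 0.0558, and 0.0849 with the block on the 2 groups alone, an alternative chosen after seeing the data). YES1 passed in CTCFL-KD under DESeq2 on all 9 libraries, without a low-count filter and without CTCFL-KD replicate 3, and CSK with length and GC offsets, with or without the block, and without CTCFL-KD replicate 1.

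For CTCFL-OE, where 561 genes and 0 of the 10 passed, the number of genes was 1517 without a low-count filter, 1483 with length and GC offsets, 1435 with these and the block, 1522 by DESeq2 on all 9 libraries, 3450 by edgeR, 4040 by DESeq2 and 3052 with the replicate block on the 2 groups alone. In these fits of 2 groups 1 of the 10 passed (LYN), by edgeR, by DESeq2 and with the block. Without 1 library, between 44 (Control replicate 3) and 5040 (CTCFL-KD replicate 1) genes and between 0 and 1 of the 10 passed. Between CTCFL-KD and CTCFL-OE, where 4771 genes and 4 of the 10 passed, edgeR on the 2 groups alone called 2668 genes and 2 of the 10, and the block on them 1983 and 2. Without 1 library the counts were 3181 to 7297 genes and 2 to 8 of the 10, the highest without CTCFL-KD replicate 1. The causes of these shifts were not tested.

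Each value that changed sign belonged to a gene that did not pass in that comparison in the main setting. CSK in CTCFL-OE was 0.0115 with upper-quartile scaling, PTK2B in CTCFL-OE was -0.0022 with length and GC offsets and -0.0036 with the block added, and SRC in CTCFL-KD was -0.0919 and -0.0923. Without 1 library, CAV1 in CTCFL-OE lay between -0.1701 and 0.4237, PTK2 in CTCFL-KD between -0.1582 and 0.103, CSK in CTCFL-KD between -0.4467 and 0.0389, and CSK between CTCFL-KD and CTCFL-OE between -0.4068 and 0.0855. Low counts limit ILK, CTCFL, FLNC, TNS4, LCK, PTPRE, SRMS and PAK3, whose fold changes rest on few reads in at least 1 group.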
